A study of Mus musculus with 35 samples.

Results

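Striatal RNA of heterozygous HttQ111/+ mice was compared with that of wild-type Htt+/+ mice, all of which had received a control antisense oligonucleotide (ASO). These were the 11 of the 35 mice in the series whose labels give the treatment as control ASO, 6 of them HttQ111/+ and 5 Htt+/+. All 11 were females of the strain C57BL6/J aged 300 to 303 days (300 to 303 in HttQ111/+, 300 to 302 in Htt+/+), and the right hemistriatum was sequenced after saline perfusion. Every mouse, wild type included, had been injected intraperitoneally each week with 50 mg/kg of control ASO between months 2 and 10 of life. The other 24 mice, 12 on saline and 12 on the treatment labelled ASO1 (the Htt-targeted ASO of the study), are used only where a result is set beside theirs. The comparison asks how far the mutant allele alters striatal transcripts when an ASO without an intended target has been given.

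In Huntington's disease an expanded CAG repeat in exon 1 of the huntingtin gene lengthens a run of glutamines in the protein, and the neurons lost first are the medium spiny neurons, the GABAergic projection neurons of the striatum. These cells fall into a direct pathway class, marked by the D1 dopamine receptor and substance P, and an indirect pathway class, marked by the D2 dopamine receptor, an adenosine receptor and enkephalin. Both convert dopamine signals into changes of cAMP through a set of cyclases, phosphodiesterases and phosphatase inhibitors that are enriched in the striatum. In the HttQ111/+ mouse a single allele of the mouse gene carries the expanded repeat at its own locus, so that the mutant protein is made under the gene's own promoter, and the other allele is wild type. A peripherally injected ASO hardly crosses the blood-brain barrier, which limits control ASO treatment as a condition of the brain. Because bulk tissue was sequenced, fewer cells of a type and less RNA per cell cannot be told apart in any value below.

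The sequence at issue is the start of the Htt coding region, in exon 1 on the plus strand of chr5:34761907-34761987 (GRCm38, transcript Htt-201). In the reference mouse allele, the capitals mark a tract of 7 glutamine codons, of which 6 are CAG and 1 is CAA, starting at codon 18. The Q111 allele carries a longer tract, whose length gene counts do not measure. Its other bases in this exon are not shown and need not match those printed.
Htt exon 1, reference allele: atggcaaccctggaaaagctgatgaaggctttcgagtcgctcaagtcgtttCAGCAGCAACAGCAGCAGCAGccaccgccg

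Total counts ranged from 33673361 to 36137645 in Htt+/+ mice and from 32850579 to 38641924 in HttQ111/+ mice, so depth did not separate the genotypes. The tissue label fitted its markers: Penk1 lay between 786 and 1605 CPM (counts scaled to a common library total) and Drd1a between 200.2 and 325 in all 11 mice, while the summed CPM of 8 cortical excitatory neuron markers was 13.0 to 82.6. No pair of libraries within a group agreed within counting noise (chi-square per degree of freedom 4.457 to 15.6 over the 25 pairs within these 2 groups). 3 libraries stood apart from their groups. Wild-type replicate 1 carried choroid plexus transcripts, with a summed CPM of 1659 over the 13 tested markers against 62.9 to 77.4 in the other wild types and 48.0 to 83.7 in HttQ111/+ mice. Wild-type replicate 2 was high in endothelial markers (541 against 377 to 411 in the other wild types) and in blood markers (426 against 72.3 to 160). HttQ111/+ replicate 2 had the highest cortical marker sum, 82.6 against 13.0 to 41.2 in the other HttQ111/+ mice. The library names also carry an L number, read here as the sequencing lane although the labels do not define it. Lanes 5, 6 and 8 held both genotypes of these 11 mice. Lane 5 held HttQ111/+ replicate 3 and wild-type replicates 2 and 3. Lane 6 held HttQ111/+ replicate 6 and wild-type replicate 5, and lane 8 held replicate 1 of each genotype. A within-lane difference below thus compares single mice, or 1 with 2 in lane 5, and carries no replication. Of these mice, lane 3 held only HttQ111/+ replicate 2 and lane 4 only wild-type replicate 4. Lane 7 held only HttQ111/+ mice (6 in the series, among them replicates 4 and 5 of this comparison).

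**Figure D1:**
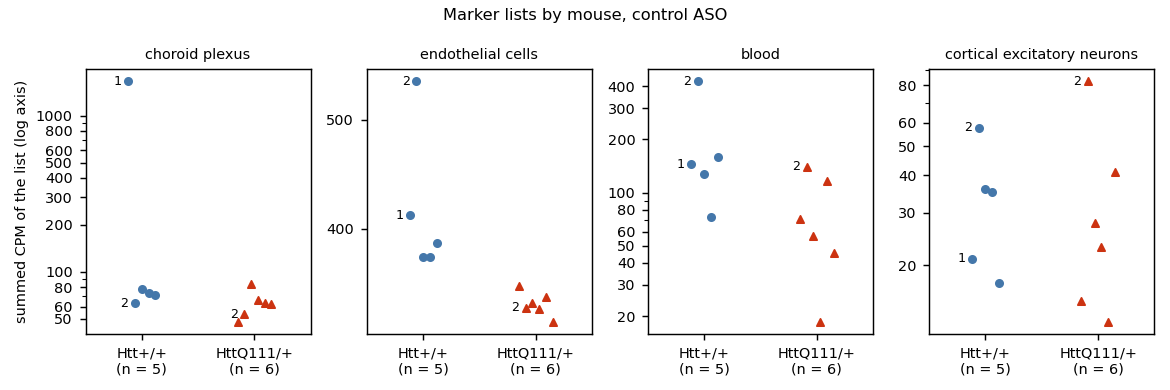
Summed CPM of cell type marker lists in each of the 11 control ASO mice, 1 point per mouse on a log axis, by genotype (circles Htt+/+, triangles HttQ111/+), with replicates 1 and 2 numbered where the text names them. Wild-type replicate 1 sits alone at 1659 CPM for choroid plexus, and wild-type replicate 2 is the highest mouse for endothelial cells (541) and blood (426).

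In total 3266 of 17639 tested genes (18.5%) differed between HttQ111/+ and Htt+/+ mice at a Benjamini-Hochberg adjusted p of 0.05 in limma, the test behind every adjusted p below. Fold changes, rises and falls are given on the log2 scale throughout, and levels in CPM. Of these, 1773 were higher in HttQ111/+ (10.1% of tested genes) and 1493 were lower (8.46%). Each count of called list members below is to be read against these shares. By size, the genes that rose had a median log2 fold change of 0.20 in absolute value and those that fell one of 0.26, 86.4% of called genes changed by less than 0.5, and 114 by more than 1, of which 35 were higher and 79 lower. The CPM ranges of the 6 HttQ111/+ and 5 Htt+/+ mice did not overlap for 1689 tested genes (9.58%), a set that held 1589 of the called genes. Without TMM scaling, on library totals alone, 3721 genes were called and 67.9% of them were higher, compared with 54.3% in the scaled fit. The median log2 fold change over all tested genes was 0.0023 scaled and 0.027 on library totals. Leaving out 3 doubted libraries (wild-type replicates 1 and 2 and HttQ111/+ replicate 2) left 1771 called genes, and leaving out lane 7 left 1902.

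Huntingtin itself was examined first, since its locus carries the mutation. The gene, listed under its older symbol Hdh, had 101, 77.6, 84.6, 92.7 and 92.7 CPM in the 5 wild types and 65.3 to 88.1 CPM with a median of 73.5 in the HttQ111/+ mice. The ranges overlapped, as the lowest wild type lay below the highest HttQ111/+ mouse. The means were 89.6 ± 8.78 (SD, n = 5) and 75.1 ± 7.73 (SD, n = 6) CPM. The log2 fold change of -0.26 (SE 0.0982, 95% interval -0.45 to -0.06) missed the threshold in limma (adjusted p = 0.0665), while the exact permutation test over mice, two-sided, gave an unadjusted p = 0.0238. Within lanes the difference was -0.50 to -0.16. The call depended on the setting, since Hdh passed in DESeq2 (adjusted p = 0.0424) and with lane as a covariate (adjusted p = 0.0269), and over all settings the adjusted p reached 0.19. A total count cannot separate the transcripts of both alleles, so this value does not check the Q111 label.

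The study's text names 4 striatal transcripts with which Q111 mice were followed, and these opened the comparison of neuronal genes. Drd1a, the D1 dopamine receptor of direct pathway neurons, had 282, 324, 325, 312 and 292 CPM in the wild types and 200.2 to 237 CPM with a median of 222 in HttQ111/+ mice. Every HttQ111/+ mouse lay below every wild type, with a log2 fold change of -0.49 (SE 0.0496, limma adjusted p = 6.58e-09). Pde10a, the phosphodiesterase that degrades cAMP and cGMP in medium spiny neurons, had 2112, 2244, 2455, 2414 and 2185 CPM in the wild types and 1099 to 1453 CPM with a median of 1339 in HttQ111/+ mice. It did not overlap either (log2 fold change -0.78, SE 0.0653, limma adjusted p = 1.34e-10). For both genes the exact permutation test, two-sided, gave 0.0022, which is the smallest p that splits of 6 and 5 mice allow.

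Islr2, a membrane protein of developing axons, went the other way. It had 23.7, 32.1, 29.1, 38.8 and 23.9 CPM in the wild types and 34.1 to 56.3 CPM with a median of 44.4 in HttQ111/+ mice. Wild-type replicate 4 lay within the HttQ111/+ range, yet the difference of 0.61 (SE 0.112) passed in limma (adjusted p = 0.000178) and in every alternative, with an adjusted p of at most 0.0385. The fourth transcript, listed as B3bp (N4bp2), had 7.98, 7.87, 7.58, 7.97 and 10.0 CPM in the wild types against 9.89 to 14.2 with a median of 10.5 in HttQ111/+ mice. Wild-type replicate 5 was the mouse that overlapped. Its log2 fold change of 0.41 (SE 0.148) was close to the threshold (limma adjusted p = 0.048), and without the 3 doubted libraries the adjusted p was 0.178, the highest of the alternatives.

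Genes of indirect pathway neurons were lower as a group. Of 6 tested members 5 fell, 1 rose, and the median log2 fold change was -0.54, against 0.0023 over all tested genes. Penk1 encodes proenkephalin, the opioid peptide precursor of these cells, and had 1458, 1605, 1589.9, 1576 and 1417 CPM in the wild types against 786 to 976 with a median of 809 in HttQ111/+ mice. Its ranges lay far apart (log2 fold change -0.86, SE 0.059, limma adjusted p = 1.76e-12). Adora2a, the adenosine receptor that opposes D2 signals, had 252, 272, 267, 289.7 and 227 CPM in the wild types and 153 to 192 with a median of 163 in HttQ111/+ mice, a fold change of -0.63 without overlap. Drd2, the D2 dopamine receptor, fell by 0.44, from wild-type values of 165, 173, 177, 182 and 161 CPM to 118 to 134 with a median of 128. Gpr6, an orphan receptor that raises cAMP in these neurons, fell by 0.45, with 79.3, 88.8, 86.0, 91.2 and 75.3 CPM in the wild types and 56.6 to 63.3 in HttQ111/+ mice. The remaining called members were Upb1 (-0.82), an enzyme of pyrimidine breakdown, and Sp9 (0.34), a transcription factor of this lineage, the single member that rose and not called without wild-type replicate 1. The 5 decreases were called in every fit that left out a mouse, and also without the 3 doubted libraries.

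Direct pathway genes were split. Of 9 tested members 3 rose and 3 fell, with a median of -0.02. Besides Drd1a, the muscarinic receptor Chrm4 fell by 0.36, with 45.8, 49.9, 51.9, 58.2 and 44.4 CPM in the wild types and 35.3 to 41.8 in HttQ111/+ mice. The transcription factors Isl1 and Eya1 rose. Isl1 had 14.9, 15.3, 14.7, 14.8 and 13.6 CPM in the wild types and 16.7 to 20.3 with a median of 19.1 in HttQ111/+ mice (log2 fold change 0.37, limma adjusted p = 5.42e-06), and Eya1 went from 7.39, 7.48, 8.04, 8.51 and 7.60 CPM to 10.3 to 11.4 (0.48, adjusted p = 5.99e-06). Neither overlapped. The 2 peptide precursors of this class did not follow Penk1. Tac1, the precursor of substance P, rose by 0.17 (233.8 ± 15.5 against 262.8 ± 14 CPM, SD, limma adjusted p = 0.0113) with overlapping mice, and Pdyn, the precursor of dynorphin, had a log2 fold change of -0.13 that did not pass (adjusted p = 0.167). Tac1 was not called without lane 7 (limma adjusted p = 0.105). Its fold change was 0.18 on saline, where it was called, and 0.03 on ASO1, where it was not.

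**Figure D2:**
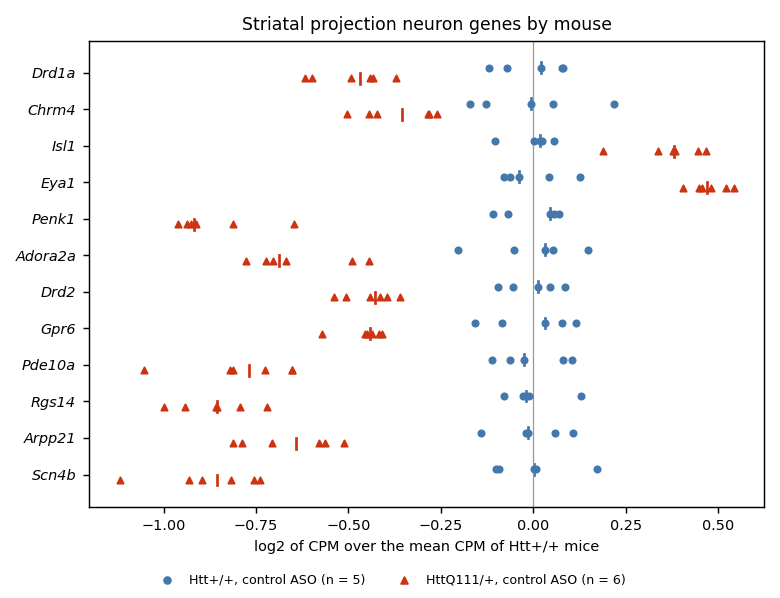
Log2 of each control ASO mouse's CPM over the mean CPM of the wild types for striatal projection neuron genes, 1 point per mouse (circles Htt+/+, triangles HttQ111/+) with a tick at each group's median. For Penk1 the HttQ111/+ mice (786 to 976 CPM) lie below the wild types (1417 to 1605 CPM), and Isl1 and Eya1 lie above theirs.

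The machinery of cAMP and G protein signalling fell as well, with 20 of 31 tested members lower, 2 higher and a median of -0.29. Over all tested genes 8.46% were called lower and 10.1% higher. Within lanes 5, 6 and 8 the median of these 31 genes was -0.37, -0.15 and -0.17. Rgs14, a regulator that shortens G protein signals, had 86.4, 85.4, 86.0, 95.4 and 82.5 CPM in the wild types and 43.6 to 52.9 with a median of 48.2 in HttQ111/+ mice (-0.86, limma adjusted p = 5.23e-11). Arpp21 and Arpp19, both phosphoprotein substrates of protein kinase A, went in the same direction. Arpp21 fell by 0.66 from 1682, 1932, 1999, 1838 and 1829 CPM to 1056 to 1302, and Arpp19 fell by 0.59 from 789, 890.0, 922, 824 and 839 CPM to 511 to 621. None of the 3 overlapped between genotypes. Without the 3 doubted libraries 18 of the 31 genes were still called lower.

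Other members of the pathway changed by similar or smaller amounts. Adcy5, the main striatal adenylyl cyclase, fell by 0.49, Ppp1r1b, which encodes the phosphatase inhibitor DARPP-32, fell by 0.37, and Gnal, the G protein alpha subunit that couples dopamine and adenosine receptors to cyclase, fell by 0.14. The calmodulin-dependent phosphodiesterase Pde1b fell by 0.46, Rgs4 by 0.51 and Rgs9 by 0.48. The tyrosine phosphatase Ptpn7 was the most changed member, with a fold change of -1.22 (10.8 ± 1.56 against 4.61 ± 0.678 CPM, SD). The members that rose were subunits of protein kinase A, Prkar1b by 0.26 (334.3 ± 7.36 against 400.5 ± 21.6 CPM, SD) and Prkaca by 0.09, the latter not called without wild-type replicate 1 (adjusted p = 0.0643) or without the 3 doubted libraries (adjusted p = 0.245). Among 23 striatal transcription factors 5 rose and 5 fell, against 10.1% and 8.46% of all tested genes, and the median was 0.02. Id4, an inhibitor of helix-loop-helix factors, fell by 0.39, and the retinoid receptors Rarb and Rxrg fell by 0.24 and 0.36. Foxp1 (-0.21) and Bcl11b (-0.15), both needed for medium spiny neuron identity, were lower with overlapping ranges, while Foxp4 (0.37), Dlx5 (0.32) and Zfp503 (0.26) were higher. The count of those that rose was 3 without wild-type replicate 1 and 2 without the 3 doubted libraries, with Zfp503 and Sp9 lost in both and Dlx5 in the latter.

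Markers of striatal interneurons did not pass in limma, with 0 of 10 tested genes called (1 at an unadjusted p of 0.05) and a median of -0.01, and edgeR and DESeq2 also called 0. Their summed CPM was 262 to 287 in wild types and 245 to 270.2 in HttQ111/+ mice.

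The genes that changed most were then taken by rule, as the 10 largest decreases and 10 largest increases among called genes that averaged 1 CPM or more, ranges that did not overlap and a call that stood without wild-type replicate 1. There were 1450 such genes, 663 lower and 787 higher. Of these, 106 without a gene symbol or on chromosome Y were left out before the largest were taken. Since non-overlap was a condition, it is a description of these 20 genes and carries no further weight. That all 20 had the same sign within each of lanes 5, 6 and 8 follows from this condition and is no separate check. Of the 20, 15 had a promoter in the RefSeq table for GRCm38.p6. For 4 of these the 250 reference bases before the start site are printed, 3 of genes with large decreases and 1 of a gene that rose. The counts are of transcripts, and nothing was measured at these bases. Capitals mark the GC box, GGGCGG on either strand, which promoters of Ddit4l, Ryr1 and Rprm held and that of Gpx6 did not.
Gpx6, chr13:21311953-21312202, plus strand: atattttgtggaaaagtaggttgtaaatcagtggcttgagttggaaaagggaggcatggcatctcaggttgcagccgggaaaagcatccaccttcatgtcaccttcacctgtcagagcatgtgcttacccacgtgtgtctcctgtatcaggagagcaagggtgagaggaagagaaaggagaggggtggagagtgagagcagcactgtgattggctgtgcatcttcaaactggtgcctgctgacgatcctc
Ddit4l, chr3:137623422-137623671, plus strand: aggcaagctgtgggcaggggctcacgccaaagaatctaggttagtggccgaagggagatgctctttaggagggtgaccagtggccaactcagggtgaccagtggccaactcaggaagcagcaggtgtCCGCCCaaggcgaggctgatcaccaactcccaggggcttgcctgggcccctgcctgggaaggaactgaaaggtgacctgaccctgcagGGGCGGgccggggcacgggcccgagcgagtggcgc
Ryr1, chr7:29125152-29125401, minus strand: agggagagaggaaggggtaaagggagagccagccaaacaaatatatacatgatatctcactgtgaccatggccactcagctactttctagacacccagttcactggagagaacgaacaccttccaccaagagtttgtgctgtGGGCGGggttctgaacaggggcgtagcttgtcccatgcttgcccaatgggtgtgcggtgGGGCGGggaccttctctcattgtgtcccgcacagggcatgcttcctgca
Rprm, chr2:54085553-54085802, minus strand: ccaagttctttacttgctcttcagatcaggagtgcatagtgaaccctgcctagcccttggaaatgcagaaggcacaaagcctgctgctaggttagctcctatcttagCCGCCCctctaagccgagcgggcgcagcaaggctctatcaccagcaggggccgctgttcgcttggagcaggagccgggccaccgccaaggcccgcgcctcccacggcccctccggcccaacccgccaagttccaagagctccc

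Over the window of 300 bases around the start (250 before and 50 after), GC boxes occurred in 4 of the 8 genes that fell and 3 of the 7 that rose. All 32851 promoters in the table held one in 35.7%, and those of tested genes in 60.2%. The TATA box TATAAA occurred in 1 of the 8 (Ddit4l, after the start site) and in 0 of the 7, against 13.6% of all promoters and 7.63% of those of tested genes. The full cAMP response element TGACGTCA was in none of the 15, with a share of 1.79% over all promoters and 2.82% over tested genes. Over the whole set of called genes the shares were close to those of tested genes, with GC boxes in 58% of promoters of genes that fell and 64.2% of those of genes that rose, and the cAMP response element in 2.47% and 3.33%. A match is a string in this window and not a measured binding site.

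The largest decrease under this rule was that of Gpx6, a glutathione peroxidase that reduces peroxides. It had 18.8, 19.0, 18.7, 18.5 and 18.2 CPM in the wild types and 2.85 to 6.67 CPM with a median of 5.60 in HttQ111/+ mice. The wild types were nearly level (18.6 ± 0.274, SD, n = 5), the HttQ111/+ mice varied more (5.24 ± 1.41, SD, n = 6), and the log2 fold change was -1.87 (SE 0.174, limma adjusted p = 1.48e-09). Ddit4l, an inhibitor of mTORC1 signalling, had 38.8, 39.5, 42.7, 34.4 and 37.8 CPM in the wild types and 9.09 to 14 with a median of 11.9 in HttQ111/+ mice. Its fitted HttQ111/+ level was 30.3% of that of the wild types, and its adjusted p was 9.02e-16 at a fold change of -1.72. Ryr1, the ryanodine receptor that releases calcium from the endoplasmic reticulum, had 121, 88.0, 115, 117 and 109 CPM in the wild types and 33.5 to 52.4 with a median of 43.1 in HttQ111/+ mice (-1.36, adjusted p = 1.98e-09).

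Among the lower-abundance decreases were enzymes, transporters and lipid-binding proteins. Tmprss6, a membrane serine protease, went from 2.32, 3.36, 2.42, 3.57 and 2.05 CPM to 0.345 to 1.14 CPM (-1.77). Slc4a11, a membrane transporter of the bicarbonate transporter family, went from 16.6, 17.8, 18.1, 20.5 and 17.8 CPM to 5.88 to 7.14 CPM (-1.45). Cpne9, a calcium-dependent phospholipid-binding copine, went from 8.60, 7.45, 8.88, 9.70 and 8.05 CPM to 2.61 to 4.10 CPM (-1.37). The others were Sec14l3 (-1.49), a lipid-transfer protein, Atp6v1c2 (-1.47), a subunit of the vacuolar proton pump, and Serpinb1b (-1.39), a protease inhibitor. Each of the 6 passed at an adjusted p of at most 3.28e-05.

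Prlr, the prolactin receptor, met the rule but rested partly on a single library. It had 18, 1.97, 1.72, 1.73 and 2.23 CPM in the wild types and 0.823 to 1.21 CPM with a median of 1.09 in HttQ111/+ mice. It is also a choroid plexus marker, and the wild-type mouse at 18 CPM was replicate 1, whose choroid plexus sum was 1659 CPM. The fold change was -1.53 with that mouse (limma adjusted p = 0.0122) and -0.86 without it (adjusted p = 0.00409), and it did not pass without lane 7 (adjusted p = 0.0728) or in a fit of the control ASO mice alone (adjusted p = 0.117). In the saline and ASO1 mice its fold changes were -0.39 and -0.43 and did not pass.

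The largest increase under the rule was that of Sfmbt2, a Polycomb group protein, which had 3.66, 2.52, 2.31, 2.70 and 2.88 CPM in the wild types and 7.32 to 10.8 with a median of 7.97 in HttQ111/+ mice (1.58, SE 0.153, limma adjusted p = 2.9e-09). Rprm, a p53-induced inhibitor of the cell cycle, had 4.69, 5.89, 4.79, 4.37 and 4.28 CPM in the wild types and 9.15 to 12.3 with a median of 9.88 in HttQ111/+ mice (1.11, adjusted p = 1.04e-08). Kcng1, a modulatory potassium channel subunit, was the most abundant of the 10, with 11.7, 13.9, 15.5, 16.1 and 12.5 CPM against 24.5 to 29.9 with a median of 28.3 (0.99, adjusted p = 2.79e-10). For each of the 3 every HttQ111/+ mouse lay well above every wild type.

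The other 7 included a protocadherin and several genes of low level. Pcdh20, a protocadherin outside the gene clusters, went from 8.48, 7.54, 7.93, 6.33 and 8.38 CPM to 14.6 to 19.4 (1.14), and Slitrk6, which guides neurite growth, from 3.35, 3.57, 4.09, 2.58 and 3.80 to 6.80 to 8.78 (1.15). Dsg1c (1.02), a desmosomal cadherin, Tmc3 (1.02), a channel-like membrane protein, Abhd1 (1.08), a hydrolase-fold protein, and Tnnt2 (1.03), the cardiac troponin T, lay between 1.04 and 6.63 CPM in all 11 mice. Afmid, an enzyme of the kynurenine pathway, was the most variable, with 1.40, 1.22, 1.11, 0.665 and 0.267 CPM in the wild types and 1.61 to 2.54 in HttQ111/+ mice (1.30, adjusted p = 0.000131), and its within-lane differences ran from 0.44 to 3.01.

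**Figure D3:**
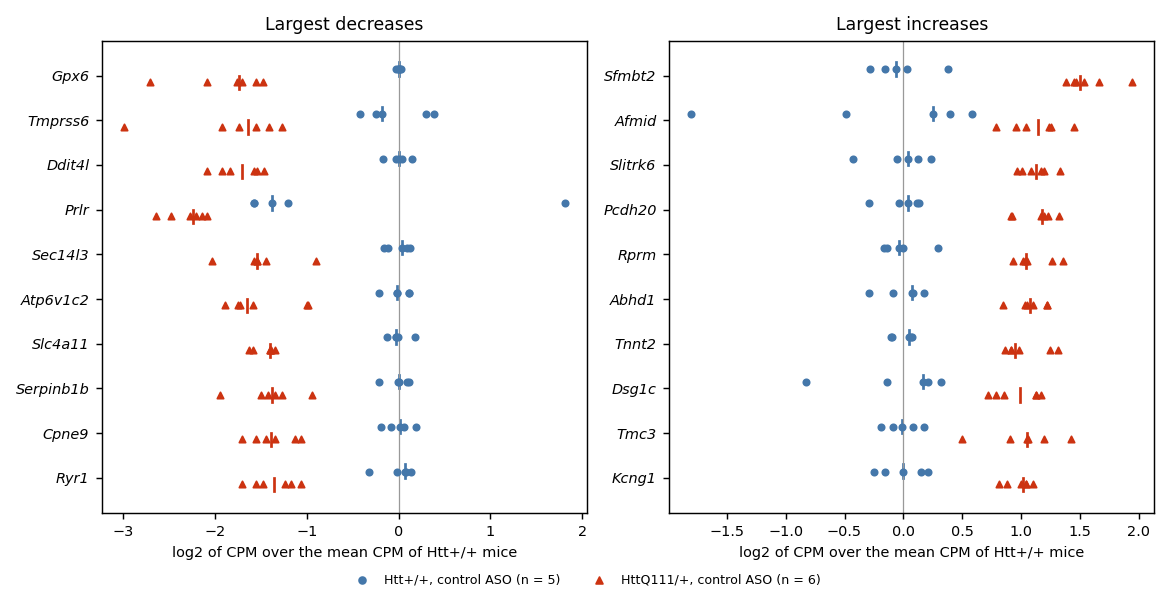
Log2 of each control ASO mouse's CPM over the mean CPM of the wild types for the 10 largest decreases and the 10 largest increases, 1 point per mouse (circles Htt+/+, triangles HttQ111/+) with a tick at each group's median. Genotype ranges do not overlap because the rule required it, and Prlr shows a single wild-type mouse at 18 CPM while the others are at 1.72 to 2.23.

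Genes of calcium handling fell without exception among those called, 16 of 28 with a median of -0.20, against 8.46% called lower over all tested genes. Besides Ryr1, the calcium- and calmodulin-dependent kinase Camk4 had 97.8, 85.3, 99.2, 96.0 and 99.9 CPM in the wild types and 45.8 to 70.0 with a median of 52.0 in HttQ111/+ mice (-0.82, limma adjusted p = 4.51e-07). Ppp3ca, the catalytic subunit of calcineurin, fell by 0.32 from 1477, 1526, 1604, 1615 and 1475 CPM to 1171 to 1295. Homer1, the scaffold that ties group 1 glutamate receptors to calcium stores, fell by 0.48 from 179, 198, 200.2, 184 and 174 CPM to 123 to 145. The inositol trisphosphate receptor Itpr1 (-0.52) and the plasma membrane pump Atp2b1 (-0.42) were lower as well, and none of these 5 genes overlapped between genotypes. The count was 14 without the 3 doubted libraries.

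Ion channels moved in both directions, mostly down. Of 28 sodium and calcium channel genes 7 fell and 2 rose, and of 49 potassium channel genes 10 fell and 3 rose, each with a median of -0.07. Over all tested genes 18.5% were called in either direction. Without the 3 doubted libraries 5 fell and 1 rose among the former, and 8 fell and 2 rose among the latter. Scn4b, a sodium channel beta subunit enriched in the striatum, had 1712, 1601, 1717, 1925 and 1592 CPM in the wild types and 787 to 1024 with a median of 944 in HttQ111/+ mice (-0.87, limma adjusted p = 5.23e-11). Scn3b, another beta subunit, rose by 0.27 from 177, 187, 194, 184 and 178 CPM to 211 to 229. The potassium channel subunits Kcnab1 (-0.39), Kcnh5 (-0.53) and Kcnq5 (-0.31) fell, in contrast to Kcng1.

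Glutamate receptor genes were lower for 6 of 22 and higher for 2, with a median of -0.10. Of all tested genes 8.46% were called lower and 10.1% higher. The metabotropic receptors Grm5 and Grm3 fell by 0.34 and 0.28, and the kainate receptor subunit Grik2 fell by 0.38. Grm5 had 390.2, 382, 411, 404 and 389.8 CPM in the wild types and 285 to 354 in HttQ111/+ mice. Of 12 GABA-A receptor subunit genes, Gabrd (-0.41) and Gabra4 (-0.15) fell and Gabra5 (0.29) rose, of which Gabrd alone was called without the 3 doubted libraries. Immediate early genes, which report recent neuronal activity, varied widely within genotype. Of 20, 3 were called, all lower, a share below the 18.5% of all tested genes. Egr2 had 13.5, 32.6, 34.8, 18.2 and 27.6 CPM in the wild types and 5.83 to 17.0 in HttQ111/+ mice (-1.01, limma adjusted p = 0.00864), with overlap. Leaving out wild-type replicate 1 raised the count of immediate early genes to 6. It was 2 without wild-type replicate 2, without HttQ111/+ replicate 2, without lane 7, without the 3 doubted libraries or with lane as a covariate. Fos was 16.2 ± 6.15 and 20.3 ± 6.68 CPM (SD) and did not pass (adjusted p = 0.46).

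Among 10 neurotrophin and receptor genes the 3 called were receptors and all fell, Ntrk2 by 0.18, Ntrk3 by 0.21 and Sort1 by 0.22. The share called lower over all tested genes was 8.46%. Sort1, a sorting receptor of proneurotrophins, did not overlap, with 563 to 594 CPM in the wild types and 459 to 526 in HttQ111/+ mice. The ligand Bdnf was at 0.494 ± 0.189 and 0.776 ± 0.611 CPM (SD), and did not pass (adjusted p = 0.627). Of 88 homeobox and developmental regulator genes 67 were matched in the count table and 24 passed the filter on low counts, and 1 of them, Pou3f3, was called (-0.25).

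The clustered beta protocadherins, adhesion proteins that give neurons surface identities, rose as a group. Of 20 tested members 13 rose and 0 fell, the median was 0.36, and within lanes 5, 6 and 8 it was 0.33, 0.34 and 0.36. Pcdhb9 had 14.8, 14.9, 12.7, 14.4 and 13.9 CPM in the wild types and 20.2 to 24.5 with a median of 21.6 in HttQ111/+ mice (0.62, limma adjusted p = 2.72e-09), and Pcdhb3 had 5.49, 5.44, 6.12, 4.91 and 5.14 against 7.22 to 9.68 (0.64). Summed over the cluster, the CPM was 163 to 173 in wild types and 202 to 225 in HttQ111/+ mice, without overlap. The coding sequences of these genes resemble each other, so the counts divided among them are uncertain for a single member and safer for the sum. Without lane 7 the count was 8, and without the 3 doubted libraries it was 7.

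**Figure D4:**
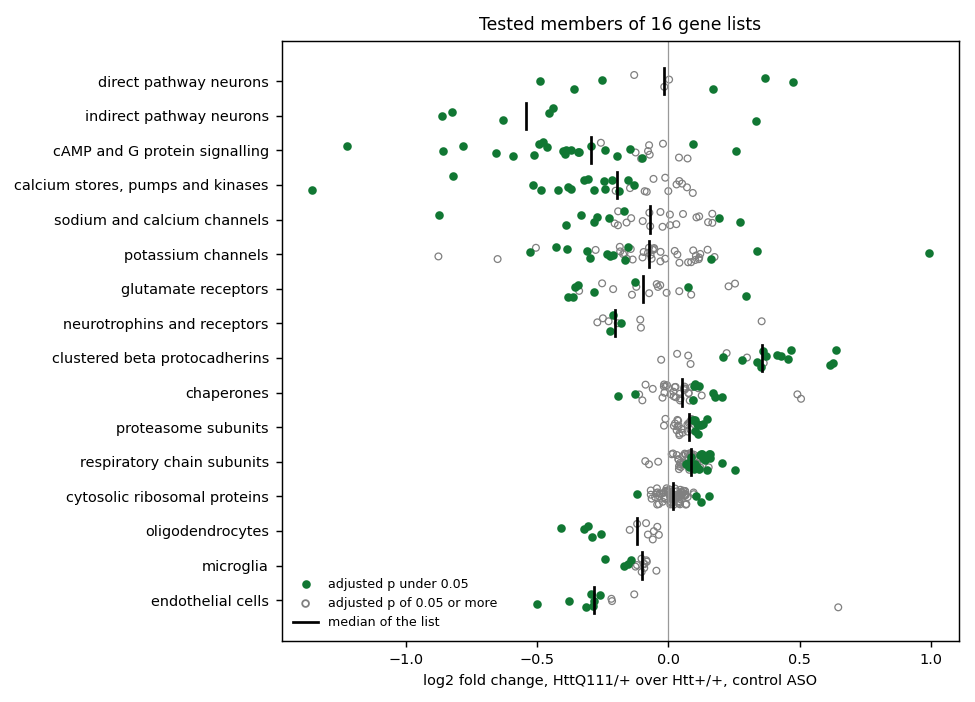
Log2 fold changes (HttQ111/+ over Htt+/+, control ASO mice) of the tested members of 16 gene lists, 1 point per gene, with genes at an adjusted p under 0.05 filled, the others open and a line at each list's median. The medians run from -0.54 for indirect pathway neurons to 0.36 for beta protocadherins.

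Subunits of the respiratory chain were slightly higher, with 21 of 63 called higher, 0 lower and a median of 0.09, against 0.0023 over all genes. Atp5b, the catalytic beta subunit of ATP synthase, had 1049, 996, 1035, 1027 and 1053 CPM in the wild types and 1124 to 1195 with a median of 1151 in HttQ111/+ mice (0.16, limma adjusted p = 5.35e-06). Cyc1, cytochrome c1 of complex III, had 94.0, 85.2, 81.1, 95.7 and 90.0 CPM against 98.3 to 119 (0.25). The summed CPM was 7558 to 7797 in wild types and 7961 to 8658 in HttQ111/+ mice. The count depended strongly on the setting, falling to 11 without HttQ111/+ replicate 4, to 7 without the 3 doubted libraries, to 10 in a fit of control ASO mice alone and to 2 without lane 7, and rising to 35 on library totals. Within lanes 5, 6 and 8 the median was 0.06, 0.07 and 0.01.

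Among protein quality genes, proteasome subunits differed most often, while the shares of chaperone and autophagy genes called were near the 18.5% of all tested genes. Of 31 proteasome subunit genes 9 rose and 0 fell, with a median of 0.08. Psmb4 had 80.3, 79.2, 78.6, 80.4 and 78.3 CPM in the wild types and 82.7 to 91.0 in HttQ111/+ mice (0.12, limma adjusted p = 0.00238). The count was 3 without lane 7, 5 without HttQ111/+ replicate 4, 5 without the 3 doubted libraries and 16 on library totals. Of 42 chaperone genes 7 rose and 2 fell (median 0.05), among them the endoplasmic reticulum chaperone Hspa5 (0.20) and 4 subunits of the chaperonin CCT (0.09 to 0.12), and 3 rose without the 3 doubted libraries or without lane 7, Hspa5 in neither. Of 27 autophagy genes 5 rose and 1 fell (median 0.02), and 2 rose and 0 fell without the 3 doubted libraries, 3 and 0 without lane 7. Sqstm1, the receptor p62 that links ubiquitinated cargo to autophagosomes, had 325, 331, 324, 339 and 315 CPM in the wild types and 341 to 381 in HttQ111/+ mice (0.15, adjusted p = 0.000954), without overlap. The kinase Ulk1, which starts autophagosome formation, rose by 0.25 from 54.5, 61.8, 61.0, 59.5 and 58.7 CPM to 63.5 to 75.9.

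Ribosomal protein, cholesterol synthesis and repeat modifier genes were called less often than the 18.5% of all tested genes. Cytosolic ribosomal protein genes had 3 of 75 higher and 1 lower (median 0.02), and cholesterol synthesis genes 2 of 22 higher and 1 lower, with no call left in limma without the 3 doubted libraries, without wild-type replicate 2 or without HttQ111/+ replicate 2. Among 13 mismatch repair genes and modifiers of CAG repeat instability, Rrm2b alone was called (0.19, limma adjusted p = 0.000491), and Msh3 (0.02) and Fan1 (-0.08) were not. Of 21 tested genes near Htt on its chromosome 3 rose and 4 fell, a share above that 18.5%. Without the 3 doubted libraries 3 rose and 2 fell. The SNARE gene Stx18 rose by 0.23 and Zfyve28, a regulator of receptor trafficking, fell by 0.28, and the median was -0.02.

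Glial and vascular genes were lower where they were called. For comparison, 18.5% of all tested genes were called, 8.46% as lower. Oligodendrocyte genes fell for 5 of 13, all 13 fold changes were negative and the median was -0.12. Mal, a myelin raft protein, had 565, 514, 515, 494 and 574 CPM in the wild types and 397 to 461 with a median of 423 in HttQ111/+ mice (-0.32, limma adjusted p = 6.97e-06). It did not overlap, whereas Mbp (-0.12) did not pass. The summed CPM of the 13 genes was 10949 to 12919 in wild types and 9844 to 11298 in HttQ111/+ mice, and 5 genes were called also without the 3 doubted libraries. Among 13 astrocyte genes Slc1a3 (-0.14), a glutamate transporter, and Glul (-0.16), glutamine synthetase, fell, and Gfap was 54.3 ± 7.93 and 47.7 ± 7.65 CPM (SD, adjusted p = 0.349). Vcan (-0.36) was the 1 called gene of 7 oligodendrocyte precursor markers, and Rgs5 (-0.27) and Pdgfrb (-0.19) were the 2 of 7 mural cell markers, none of them called without the 3 doubted libraries. The called shares of the astrocyte and precursor lists were below the 18.5% of all tested genes.

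Microglial and endothelial calls rested in part on single wild-type mice. Of 14 microglial genes 4 fell, all by 0.24 or less (median -0.10), among them the fractalkine receptor Cx3cr1, with 77.5, 71.4, 62.4, 62.4 and 65.9 CPM in the wild types and 55.3 to 64.3 in HttQ111/+ mice. Without wild-type replicate 1, whose microglial sum of 760.3 CPM was the highest of the 11, 0 of 14 were called in limma (3 at an unadjusted p of 0.05), and without the 3 doubted libraries 0 were called as well (2 unadjusted). With all mice edgeR and DESeq2 called 4 and 5. Of 11 endothelial genes 7 fell (median -0.28). The 1 positive fold change, 0.65, was the largest of the list in size and was not called. Kdr, a receptor of vascular endothelial growth factor, had 16.8, 22.9, 11.1, 11.7 and 14.1 CPM in the wild types and 9.60 to 11.6 in HttQ111/+ mice (-0.50), and Slco1a4, an organic anion transporter of the blood-brain barrier, had 77.8, 83.1, 71.1, 69.3 and 70.8 against 56.4 to 66.4 (-0.31). The count was 4 without wild-type replicate 2 and 2 without the 3 doubted libraries. The endothelial sums were 377 to 389 in the 3 remaining wild types and 331 to 356 in the HttQ111/+ mice. In the 24 mice of the other treatments they were 335 to 454.

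Blood and choroid plexus genes followed the libraries already named. The 3 tested blood genes were called lower, Hbb-b1 with 81.2, 234, 69.2, 39 and 89.3 CPM in the wild types and 10.4 to 72.0 in HttQ111/+ mice (-1.33, limma adjusted p = 0.0229), but in limma 0 of 3 were called without wild-type replicate 2 or without HttQ111/+ replicate 4 (3 of 3 at an unadjusted p of 0.05 in both). With all mice edgeR and DESeq2 called 3 of 3. The median of the same genes was 0.56 in saline mice. Of 13 choroid plexus genes 3 were called lower, and 1 without wild-type replicate 1, whereas edgeR called 11 and DESeq2 called 2 with all mice. Ependymal, cortical excitatory and thalamic markers gave 0 calls in limma, edgeR and DESeq2 among 6, 8 and 4 tested genes (0, 1 and 0 at an unadjusted p of 0.05 in limma). The part of blood, choroid plexus or vascular content in other genes' differences was not tested.

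The same genotype contrast was available in 24 further mice, none of which belongs to the 11. It called 3078 genes (17.4%) on saline and 3733 (21.2%) on ASO1. Of the 3266 genes called in control ASO mice, 1818 were also called on saline, which is 55.7% of the control ASO list and 59.1% of the saline list, and all 1818 had the same direction. With ASO1 mice 2238 were shared, 68.5% and 60.0% of the lists, 2237 of them in the same direction. Called or not, 95.4% of the control ASO genes had the same sign on saline and 98.0% on ASO1. In all 3 treatments 1595 genes were called, and 805 (24.6%) were called in control ASO mice alone.

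That a gene was called in control ASO mice alone does not show that its difference was particular to them, and the test of the difference itself gave no call. In limma the interaction of genotype with treatment was called for 0 genes between control ASO and saline mice (1169 at an unadjusted p of 0.05) and for 0 between control ASO and ASO1 mice (713 unadjusted). The quasi-likelihood test of edgeR called 0 in both (1248 unadjusted with saline), and DESeq2 called 1 and 0 (1183 and 657 unadjusted). The 3 genes of smallest p with saline were Ggta1, an enzyme that builds the alpha-galactose epitope, Gm889 and Jsrp1, a protein of the sarcoplasmic reticulum, and those with ASO1 were mFLJ00332, Nudt14 and Jsrp1. Ggta1 was lower in HttQ111/+ mice on control ASO (-0.44) with values of 0.02 on saline and -0.13 on ASO1 (interaction with saline -0.46, SE 0.101, limma adjusted p = 0.734). Jsrp1 had 0.04 on control ASO against -0.63 on saline and -0.67 on ASO1.

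By gene, the largest changes had similar values in the other mice. Gpx6 had fold changes of -1.87, -2.01 and -1.97 on control ASO, saline and ASO1, Ddit4l -1.72, -1.65 and -1.74, and Sfmbt2 1.58, 1.48 and 1.45. Of the 20 genes with the largest changes 19 were called on saline and 19 on ASO1, with Prlr the exception in both. Kcng1 was somewhat larger on control ASO (0.99) than on saline (0.76) or ASO1 (0.72), a difference that was not called. Drd1a had -0.49, -0.46 and -0.52, and Hdh -0.26, -0.18 and -0.25, none of the latter passing.

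By list, the counts of called genes are given side by side for the 3 treatments. Indirect pathway genes were lower for 5 of 6 in each treatment, cAMP signalling genes for 20, 22 and 24 of 31 and calcium genes for 16, 18 and 20 of 28 on control ASO, saline and ASO1, and beta protocadherins were higher for 13, 15 and 10 of 20. Immediate early genes were lower for 3, 7 and 5 of 20, and striatal transcription factors were higher for 5, 2 and 3 and lower for 5, 5 and 7 of 23. Chaperones were higher for 7, 6 and 15 of 42. Respiratory chain genes were higher for 21, 5 and 6 of 63 and proteasome genes for 9, 1 and 1 of 31, with medians of 0.09, 0.03 and 0.02 for the former. Oligodendrocyte genes were lower for 5, 4 and 3 of 13, and endothelial genes for 7, 0 and 3 of 11. No interaction was called in limma for any member of these lists, so these counts are set side by side without a claim that the treatments differ.

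**Figure D5:**
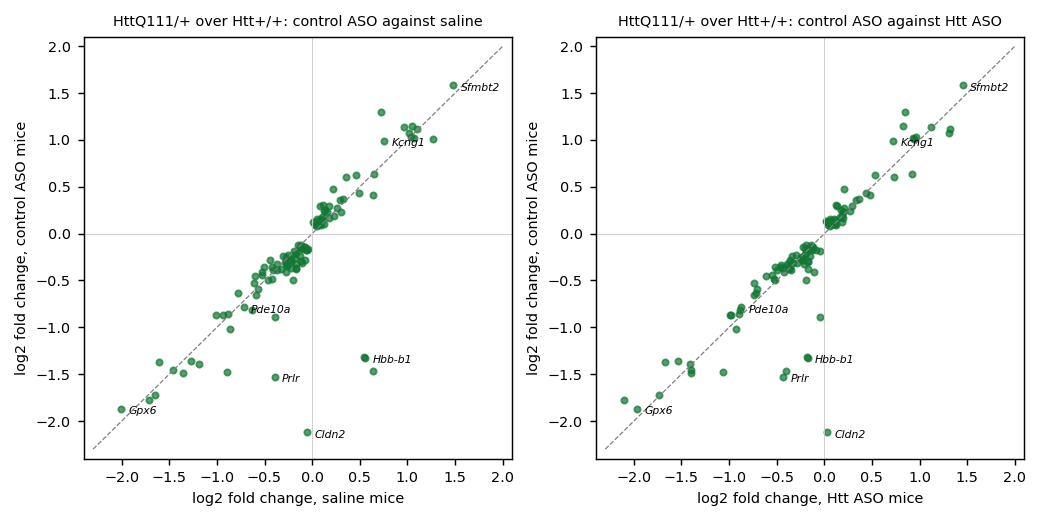
Log2 fold change of HttQ111/+ over Htt+/+ in control ASO mice (vertical axes) against that in saline mice and in mice on Htt ASO, the treatment labelled ASO1 (horizontal axes), for 116 named genes, with a dashed line of equality. The genes were mostly chosen for being called in control ASO mice, and Gpx6 at -1.87 lies near -2.01 on saline and -1.97 on ASO1, whereas Prlr at -1.53 lies at -0.39 and -0.43.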

How the data were processed

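Poly(A) RNA of the hemistriatum was sequenced in 35 mice (TruSeq Stranded mRNA libraries, paired ends). The side was the right one except in a wild-type ASO1 mouse labelled left. Per the labels and the study's methods, the authors aligned reads with Bowtie 0.12.9 to the mm9 transcriptome and estimated expression per gene with RSEM 1.1.18. The deposited values are expected counts from RSEM, 55.6% of them whole, with no further normalization, and whether strand was used in counting is not given in the sources used here. RSEM shares reads among similar transcripts, so single members of gene families are less certain.

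Groups came from the labels, and mice with the treatment labelled ASO1 were taken as the Htt ASO group. In R 4.3.3, counts of 22099 listed genes were filtered with filterByExpr (minimum count 10, minimum total 15), leaving 17639, scaled by TMM, and fitted with limma 3.58.1 after voom with a mean per group over all 35 mice (29 residual degrees of freedom), as limma is the test of the study's methods. Benjamini-Hochberg adjustment ran over all tested genes at 0.05. Log2 CPM for single genes used a prior count of 2 in an exact permutation test over all splits of 6 and 5. Limma p-values set each difference against a spread estimated between mice within groups over all 35 mice and moderated across genes. The exact permutation test used the 11 compared mice alone. Alternatives were edgeR 4.0.16 and DESeq2 1.42.0 (on rounded counts), other scalings, filters and weights, lane as a covariate, and fits without single mice or libraries that stood apart. Scripts were tested on simulated data.

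Named genes were Htt, the 4 transcripts of the study's text, the 10 largest decreases and increases under the stated conditions, up to 4 called members of smallest adjusted p per list, and the 3 genes of smallest p per interaction. Further members are named to describe a list, chosen after their values were seen. The comparison, its members and the lists were chosen with earlier results of these data known. Promoters and the Htt exon are of GRCm38, another build than that of the counts. Results for some list members are not reported here.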

Additional observations from a re-analysis of the deposited data

Results flagged for a closer look

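Of 268 group values (named genes and marker sums, by genotype), 17 held a mouse farther from its group than Dixon's test allows at the 95% level, where chance gives about 1 in 20, or 13 over these values. Wild-type replicates 1 and 2 account for 5 each, and no explanation was weighed for any of them.

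In wild-type replicate 1 the summed CPM of the choroid plexus list was 1659 against 77.4 in the next wild type, and its members Prlr (18 against 2.23), Cldn2 (7.84 against 0.369) and Otx2 (6.06 against 2.02) stood out in the same way. This mouse was also the lowest wild type for Hspa2, at 26.9 CPM with the next at 29.7. Wild-type replicate 2 was highest for Hba-a2 (186 CPM against 68.8), Hbb-b1 (234 against 89.3), the blood sum (426 against 160) and the endothelial sum (541 against 411), and lowest for Camk4 (85.3 against 96.0). Wild-type replicate 3 was lowest for Pcdhb17 (16.3 against 18.3), and wild-type replicate 5 was highest for B3bp (10.0 against 7.98).

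Among HttQ111/+ mice, replicate 1 was highest for B3bp (14.2 against 11.2), replicate 2 lowest for Cct2 (127 against 133) and replicate 3 lowest for Gpr6 (56.6 against 61.3). Replicate 4 was highest for Sdhc (91.9 against 86.0) and lowest for Vcan (25.3 against 32.6).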

How the results depend on the processing

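The number of genes called in control ASO mice (3266) ran from 2507 without HttQ111/+ replicate 4 to 3149 without HttQ111/+ replicate 3 when mice were left out singly. It was 3364 in edgeR, 3445 in DESeq2, 3078 without a filter, 3248 at a mean of at least 1 CPM, 3030 with lane as a covariate, 3198 with sample weights, 3227 with robust moderation, 3721 on library totals and 2481 in a fit of these 11 mice. It was more than 1.5 times lower without lane 7 (1902) and in 2 settings added after seeing the data, these 11 mice without wild-type replicate 1 (2025) and all groups without the 3 doubted libraries (1771), each with fewer mice. DESeq2 called 1 interaction with saline. Of 2663 values of 116 named genes under the alternatives, 0 changed sign, 218 lost the threshold and 5 (those of Hdh) gained it, over 38 genes. Of 1035 list counts, 813 stayed within 1.5 times and 222 did not. No paired analysis was possible because the labels give no replicate number shared by the genotypes. Below about 1 CPM few reads support a value, and the 5 against 6 mice limit calls of small changes.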

Other observations

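Some genes expressed below the level required of the 20 largest changes also differed, and the 4 given here were chosen after their values were seen. Wt1, a zinc finger transcription factor of kidney and gonad development, had 6, 5, 1, 1 and 4 counts in the wild types (0.0284 to 0.167 CPM) and 42 to 84 counts in HttQ111/+ mice (1.09 to 2.52 CPM, median 1.60). Its fitted log2 fold change was 4.12 (SE 0.574, limma adjusted p = 2.7e-06) and 3.83 to 4.76 over 23 alternatives, with 3.72 on saline and 4.66 on ASO1. At such counts the fitted size depends on the model, while the genotypes did not overlap.

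Sohlh1, a germ cell transcription factor, had 11 to 27 counts in wild types and 1 to 4 in HttQ111/+ mice (-2.52, limma adjusted p = 0.000114). Aoah, an enzyme that inactivates bacterial lipopolysaccharide, went from 0.709 to 1.37 CPM in wild types to 0.06 to 0.451 CPM in HttQ111/+ mice (-2.12), and Mafa, a transcription factor of insulin-producing cells, from 0.748 ± 0.159 to 0.204 ± 0.0338 CPM (SD, -1.79). All 3 were lower in the saline and ASO1 mice too.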
